A study of Gossypium hirsutum with 3 samples.

Results

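Chromatin genes of cotton ovules were examined with 5 genes of a custom oligonucleotide microarray that represented 11143 genes. They were a topoisomerase II gene (Contig17288), a histone H4 gene (Contig15160), a histone H2A gene (Contig4036) and a pair of genes similar to high mobility group (HMG) proteins (TMIRS_036_B03.F and Contig16160). The genes were chosen from the array ratios of the comparison described here, together with the descriptions that the study gave its contigs. Their ratios are therefore a description and carry no test. The descriptions rest on protein similarity, and that of TMIRS_036_B03.F was the weakest of the 5 matches. Each gene had 4 different probes with 1 spot each, so that 20 spots per array represented the group. Probe sequences were not used here.

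Upland cotton (Gossypium hirsutum) was field grown, and both RNAs came from plants at 1 dpa (days post anthesis, the days since the flower opened). The first tissue was fiber initials, epidermal cells that begin to grow out as fiber, which the study shook off frozen ovules from many pooled bolls with glass beads. The second was whole ovules, which still carry their fiber initials. Each of 3 arrays received both RNAs, 1 labeled with Cy3 (green) and 1 with Cy5 (red), and the methods describe separate harvest days. The methods name polyribosomal RNA, which is RNA bound to translating ribosomes, whereas the labels name total RNA. Flowers came from the cultivars DES119 and ST4793R, and the cultivar on each array is not given in the sources used here. The labels name no treatment.

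Histones H2A and H4 are core proteins of the nucleosome, the spool around which nuclear DNA is wound. Dividing cells copy their DNA in S phase and make new histones at the same time, so that transcripts of most core histone genes are known as markers of DNA replication. Topoisomerase II passes one DNA helix through another and frees the copied chromosomes from each other before mitosis. HMG proteins bend or open DNA in chromatin and are abundant in many nuclei. In young cotton bolls the fiber initials have left the mitotic cycle, whereas other cells of the ovule go on dividing.

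The direction of each ratio had to be chosen first, and the tissue of each RNA was not settled. By the sample labels fiber was the green channel of the first pair of arrays and the red channel of array 3. The spots themselves carry codes of the RNA in each channel, which begin with SP1 or SP2. By these codes the SP2 RNA was green on arrays 1 and 3 and red on array 2. The label of array 1 makes the SP2 RNA fiber, and the labels of arrays 2 and 3 make it ovule. All values below are SP2 over SP1 on the log2 scale, turned by the codes, where the gene ratios of array pairs had correlations across genes of 0.58, 0.52 and 0.81. A negative value is a lower level in fiber initials if the label of array 1 holds and a lower level in ovules if the labels of arrays 2 and 3 hold. With each array turned by its own label, all 5 members were below 0 on array 1 and above 0 on arrays 2 and 3, their median was 0.71, and limma called 0 genes, with 537 at an unadjusted p under 0.05. Arrays 1 and 2 share the code SP2A, which leaves separate harvests uncertain. Here n = 3 counts arrays, and p-values measure the spread between these arrays, which may be technical.

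Fiber markers were read in the same direction. GhFDH, a FIDDLEHEAD-like gene of the epidermis, had a mean ratio of 1.17 ± 0.65 (SD, n = 3, adjusted p = 0.0303), and the fiber transcription factor MYB109 had 1.29 ± 0.73 (adjusted p = 0.0287). MYB2 (0.60 ± 0.52, adjusted p = 0.136), GhACY (0.96 ± 1.47, adjusted p = 0.302) and GhRDL (0.37 ± 0.33, adjusted p = 0.246) did not pass the test. GhACY was at -0.73 on array 1 against 1.84 and 1.78 on arrays 2 and 3. The other markers were above 0 on each array. In array order GhFDH had 0.55, 1.85 and 1.10, and MYB109 had 0.88, 2.13 and 0.87. MYB2 had 1.04, 0.74 and 0.02, and GhRDL had 0.03, 0.68 and 0.39. A fiber marker above 0 goes with the label of array 1, by which the SP2 RNA is fiber. The tissue of each RNA was not tested in another way. The call of MYB109 was lost without array 1 (adjusted p = 0.0547) and that of GhFDH without array 2 (adjusted p = 0.0545). GhACY passed without array 1 (1.81, adjusted p = 0.0127) and MYB2 without array 3 (0.89, adjusted p = 0.0221). With each array centred on its median in place of loess, neither GhFDH (adjusted p = 0.115) nor MYB109 (adjusted p = 0.0973) passed. Median signals above local background lay between 131 and 311 intensity units in either RNA. At all 60 readings of the members, 20 spots on each of 3 arrays, both RNAs were above background. Green was judged by the scanner's flag and red by the negative controls. The green negative controls had an SD of 102 intensity units on array 1, against 5.6 and 4.77 on arrays 2 and 3. On array 1 green was the SP2 RNA, in which Contig16160 averaged 176.

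Topoisomerase II had the ratio farthest from 0 among the 5 genes. Its signal above background, averaged over 4 probes, was 2156, 1664 and 853 intensity units in the SP2 RNA on arrays 1, 2 and 3. In the SP1 RNA the same probes gave 22790, 12300 and 5765. In these averages the lowest SP1 value was above the highest SP2 value, whereas signals of different probes overlapped. The members were chosen by their ratios, and the share of all genes that separate in this way was not counted. The normalized log2 ratios were -3.39, -3.67 and -2.94, with a mean of -3.33 ± 0.37 (SD, n = 3), which is a 10.1-fold lower level in the SP2 RNA. Only 2 of the 11081 genes tested had a lower mean ratio. In RNA extracted from many cells together, fewer cells with a transcript and less transcript per cell cannot be told apart.

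The histone genes had ratios close to each other. Histone H4, Contig15160, gave signals of 6467, 9358 and 7093 in the SP2 RNA and 38030, 20720 and 29520 in the SP1 RNA. Its ratios of -2.30, -2.16 and -2.34 had a mean of -2.26 ± 0.09 (SD, n = 3; 4.80-fold). Of all genes tested, 10.8% had a smaller SD over the arrays. Without loess the spread was larger, and the SD of H4 was 0.54 with median centring and 0.70 in the deposited ratios. Histone H2A, Contig4036, gave 5063, 6467 and 5115 in the SP2 RNA and 30680, 13000 and 16380 in the SP1 RNA. Its ratios were -2.49, -2.16 and -2.19, with a mean of -2.28 ± 0.18 (SD, n = 3; 4.86-fold). For both histones every averaged SP1 signal was above every averaged SP2 signal, whereas signals of different probes overlapped. H4 and H2A are parts of the same particle, and their ratios differed by 0.19, 0.0041 and -0.14 on arrays 1, 2 and 3, with no common sign.

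Both HMG genes were dimmer. TMIRS_036_B03.F, similar to a protein with an HMG box, a fold that binds and bends DNA, gave 565, 840 and 426 intensity units in the SP2 RNA and 3879, 3188 and 1470 in the SP1 RNA. Its ratios were -2.57, -2.60 and -2.10, with a mean of -2.42 ± 0.28 (SD, n = 3; 5.37-fold). Contig16160, similar to a high mobility group protein of cucumber, gave 176, 171 and 125 in the SP2 RNA and 961, 454 and 608 in the SP1 RNA. The averaged SP2 and SP1 signals of each gene did not overlap, whereas signals of different probes of Contig16160 did. For Contig16160 the ratios were -2.11, -1.44 and -2.18, with a mean of -1.91 ± 0.41 (SD, n = 3; 3.76-fold). Array 2 gave the ratio nearest to 0 for this gene, and its SD was above that of 78.3% of all genes.

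**Figure D1:**
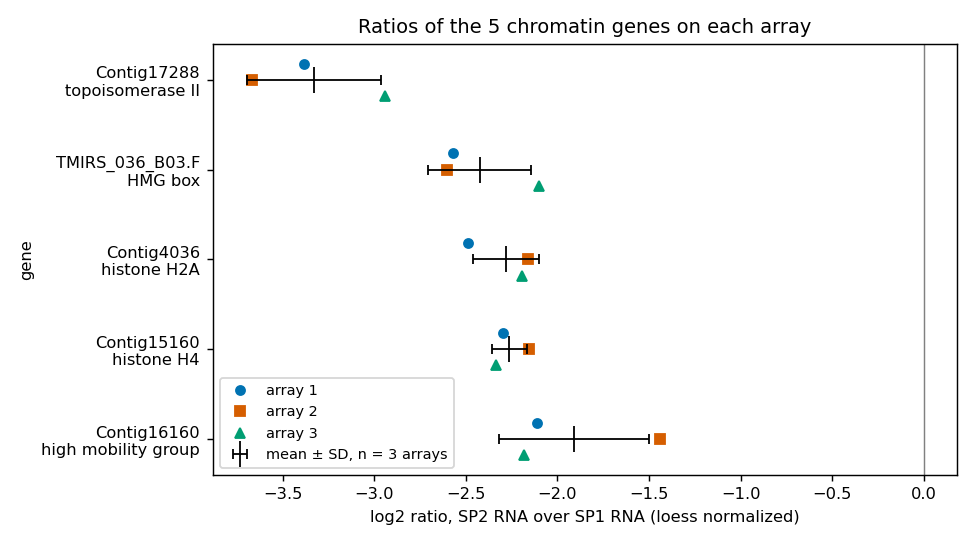
Loess-normalized log2 ratios of SP2 over SP1 RNA (horizontal axis) for the 5 genes, with a symbol for each of the 3 arrays and a bar for the mean ± SD. Every symbol lies below 0, from -3.67 for topoisomerase II on array 2 to -1.44 for Contig16160 on array 2.

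In the order of mean ratios, topoisomerase II stood apart from the other members. It was below each of them on each of the 3 arrays, with log2 differences between -2.23 and -0.61. Against the next gene, TMIRS_036_B03.F, the difference was -0.91 ± 0.14 (SD, n = 3). TMIRS_036_B03.F, histone H2A and histone H4 had no settled order, since the sign of each difference between them changed with the array. After loess both histones were below Contig16160 on all arrays, H4 by a difference of -0.35 ± 0.32 and H2A by -0.37 ± 0.36 (SD, n = 3), close to the size of their spread. On array 3 the H2A difference was -0.0068, and TMIRS_036_B03.F was above Contig16160 there by 0.08. The order turned on arrays 2 and 3 with median centring, where on array 2 Contig16160 had -1.34, H4 -1.26 and H2A -1.30.

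Because the members were chosen by these ratios, their place among all genes and their calls follow from the choice. The calls are given as a description and are no evidence. Limma called 5 of 5 lower in the SP2 RNA at an adjusted p under 0.05, where 8.31% of all 11081 genes tested were called lower and 3.95% higher. The study itself called a gene at a 2-fold change and an unadjusted p up to 0.05. There 5 of 5 passed, and 4.73% of all genes did so in the lower direction. Mean ratios of the members ran from rank 3 to rank 102 from the lowest, with a median of -2.28 against 0.04 for all genes. The central 90% of all genes lay between -0.98 and 0.65.

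**Figure D2:**
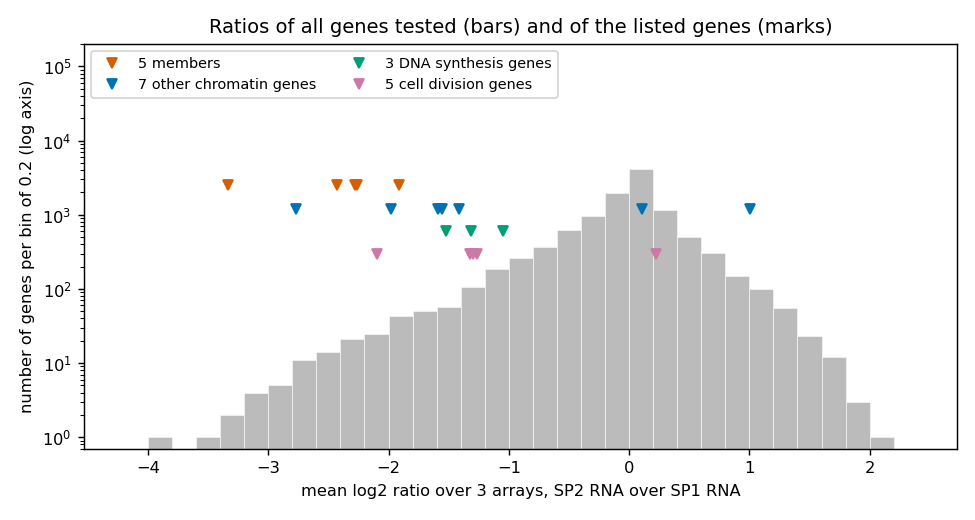
Number of genes (vertical log axis) by mean log2 ratio of SP2 over SP1 RNA in bins of 0.2 (bars, 11081 genes), with marks for the 5 members and for 15 related genes. The members lie in the lower tail, between -3.33 and -1.91, and 12 of the related genes lie below -1.

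Single probes of a gene gave different sizes but 1 direction. Each of the 5 genes had 12 probe readings over the arrays, and all 60 ratios were below 0. In histone H4 the probe means ran from -2.84 to -1.21, an SD between probes of 0.72 against an SD between arrays of 0.09. The probe nearest to 0 was the dimmest, with 126 to 169 intensity units in the SP2 RNA and 270 to 396 in the SP1 RNA, whereas the other 3 probes of this gene gave at least 3280 and 12440. With plain background subtraction that probe had -1.36. The brightest H4 probe was saturated (65000 units or more) in the SP1 RNA on arrays 1 and 3, with -2.04 and -2.87 there against -2.78 on array 2 where it was not. Without saturated spots the mean of the gene was -2.23.

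Probes of the other members were closer together. Topoisomerase II had probe means from -3.62 to -2.96, histone H2A from -2.49 to -1.93, TMIRS_036_B03.F from -2.73 to -2.21 and Contig16160 from -2.51 to -1.55. In 4 of 5 genes the probe with the lowest SP1 signal also had the ratio nearest to 0. The exception was Contig16160, where probes 1 and 2 were similarly dim and had -1.55 and -1.79. On array 2 the 3 dimmer probes of Contig16160 had ratios of -1.25, -1.19 and -1.18, and the brightest had -2.15. Whether low signal had a part in these sizes was not tested.

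**Figure D3:**
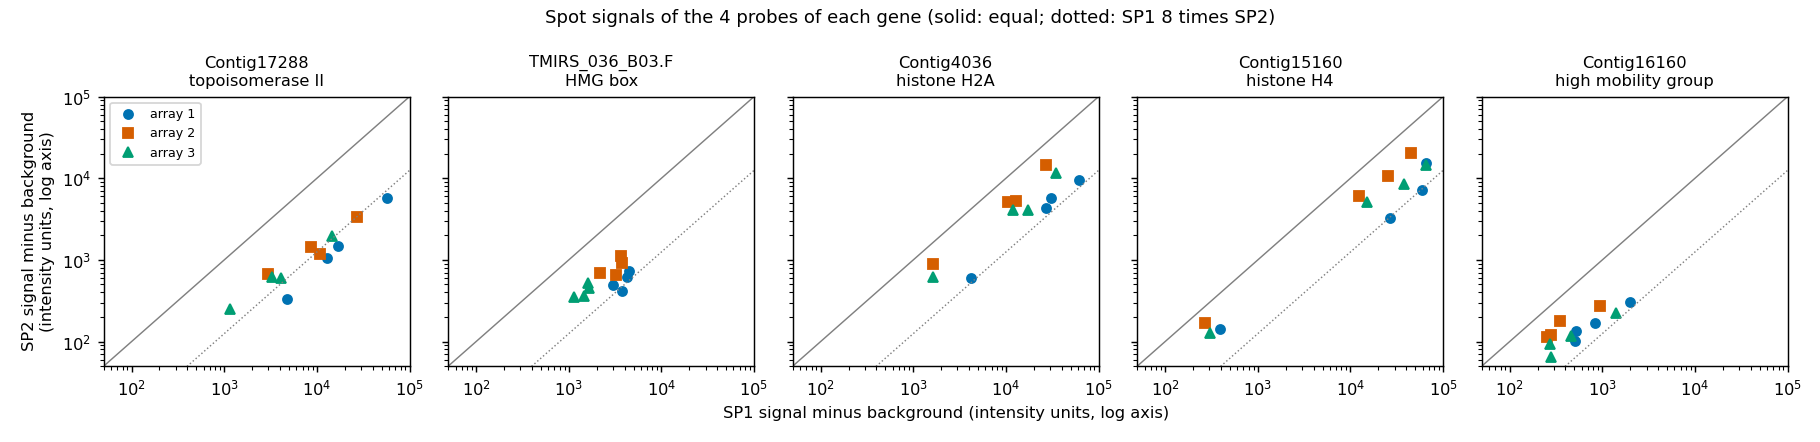
Signal above local background of each spot in the SP1 RNA (horizontal) and in the SP2 RNA (vertical), both on log axes in intensity units, before dye normalization, with a panel for each of the 5 genes and a symbol for each of 3 arrays. All 60 spots lie under the line of equal signal, with the spots of array 2 nearest to it for both histones.

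The size of the histone ratios depended on the dye normalization, most of all on array 2. In the deposited ratios, turned to SP2 over SP1 but without normalization, histone H4 had -2.42, -1.02 and -1.79 on arrays 1, 2 and 3, and histone H2A had -2.63, -1.02 and -1.65. Topoisomerase II had -3.57, -2.73 and -2.58, TMIRS_036_B03.F -2.80, -1.93 and -1.79, and Contig16160 -2.33, -1.27 and -2.07. The members thus stayed below 0 on every array without normalization, in which the median gene stood at 0.25. The SP2 RNA was red on array 2 only, so that a dye effect and that array cannot be told apart.

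Other genes of chromatin, DNA synthesis and cell division were taken from the study's table by their descriptions. That table was drawn up on these arrays and on arrays of older fiber, so that a direction among its genes is no independent evidence, and 28.7% of its 1036 genes tested were called lower in the SP2 RNA. Of 15 such genes, 12 were called lower and 1 higher by limma over all genes tested. Their median ratio was -1.33, against 0.19 for all genes of the table and 0.04 for all genes tested. The adjusted p of the 13 called genes lay between 0.00154 and 0.021.

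Among 7 chromatin genes besides the members, 5 were lower, 1 was higher and 1 did not pass the test. The histone H3 gene Contig13847, encoding the partner of H4 in the nucleosome, fell farthest with -2.77 ± 0.47 (SD, n = 3; 6.81-fold, adjusted p = 0.00154), and had -2.23, -3.09 and -2.98 on arrays 1, 2 and 3. Histone H1, Contig4454, which binds the DNA between nucleosomes, had -1.98 ± 0.46 (adjusted p = 0.00324) with 1 probe in 3 spots, of which 2 readings were saturated in the SP1 RNA. Its call was lost with median centring (-1.41, adjusted p = 0.109) and with the deposited ratios (-1.27, adjusted p = 0.14). On array 2 its ratios were -0.33 and -0.04 in these settings. A second histone H2A gene, Contig14836, had -1.59 ± 0.10 (adjusted p = 0.00205), and an H2A-like gene, Contig2150, had -1.56 ± 0.27 (adjusted p = 0.00334). After loess both were nearer to 0 than the member Contig4036 on each array, but on array 2 Contig14836 had -1.48 against -1.30 for Contig4036 with median centring and -1.31 against -1.02 in the deposited ratios. Histone copies are similar in sequence, and signal shared between copies was not tested.

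The remaining chromatin genes went different ways. Contig6521, similar to the histone-like DNA-binding protein PF1, had -1.42 on average, with -1.40, -1.43 and -1.42 on the arrays (adjusted p = 0.00257). Contig288, which resembles a nucleosome and chromatin assembly factor, rose to 1.00 ± 0.22 (SD, n = 3; 2.00-fold, adjusted p = 0.0104). It had 0.88, 1.26 and 0.87 on arrays 1, 2 and 3, and 11 of its 12 probe readings were above 0. Its call was lost with median centring (1.24, adjusted p = 0.0619) and with the deposited ratios (1.40, adjusted p = 0.0644). The AT-hook gene Contig14677, of a domain that binds the minor groove of DNA, had -0.43, 0.13 and 0.61 on the arrays, and the mean of 0.10 ± 0.52 did not pass the test (adjusted p = 0.845).

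All 3 genes of DNA synthesis were lower. The catalytic subunit of DNA polymerase epsilon (R12F_06R_F02_InvR_09Aug04_006.ab1), which copies the leading strand, had -1.53 ± 0.29 (SD, n = 3; 2.88-fold, adjusted p = 0.00373). Replication protein A1 (Contig8124), which coats single-stranded DNA, had -1.32 ± 0.65 (adjusted p = 0.021), and its call was lost without array 1 (adjusted p = 0.0623). Ribonucleotide reductase (Contig3252), which makes the DNA building blocks, had -1.05 ± 0.30 (2.07-fold, adjusted p = 0.0115). These genes were dim, with 67.8 to 154 intensity units in the SP2 RNA and 97.4 to 518 in the SP1 RNA. Both RNAs were above background at 10 of 12 readings of Contig8124 and 11 of 12 of Contig3252, so that the sizes of their ratios rest partly on SP2 readings within background.

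Of 5 genes listed under cell division, 4 were lower, and all of these but phragmoplastin were kinesins. The short descriptions used here name no role in division for these kinesins. Kinesins are motors that move along microtubules and some of them act in the spindle or the phragmoplast, the plant structure that builds the new cell wall. A gene related to kinesin motor proteins had -2.09 ± 0.39 (SD, n = 3; 4.27-fold, adjusted p = 0.00218), RMIRS_032_H10.F had -1.33 ± 0.34 (adjusted p = 0.00678) and Contig16919 had -1.27 ± 0.54 (adjusted p = 0.016). Phragmoplastin (GHCOT_5D_E07_T3_26Aug03_055.ab1), a dynamin of the forming cell plate, had -1.30 ± 0.50 (adjusted p = 0.0127). In the deposited ratios Contig16919 had -2.06, -0.23 and -0.37 on arrays 1, 2 and 3 (limma adjusted p = 0.296). The cyclin-like gene TMIRS_190_H08.F had 0.22 ± 0.18 (adjusted p = 0.448). On array 3 the median ratios of the DNA synthesis genes (-0.78) and the cell division genes (-0.79) were nearer to 0 than on array 1 (-1.15 and -1.50) or array 2 (-1.79 and -1.59). The chromatin genes had medians of -1.52, -1.52 and -1.42.

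**Figure D4:**
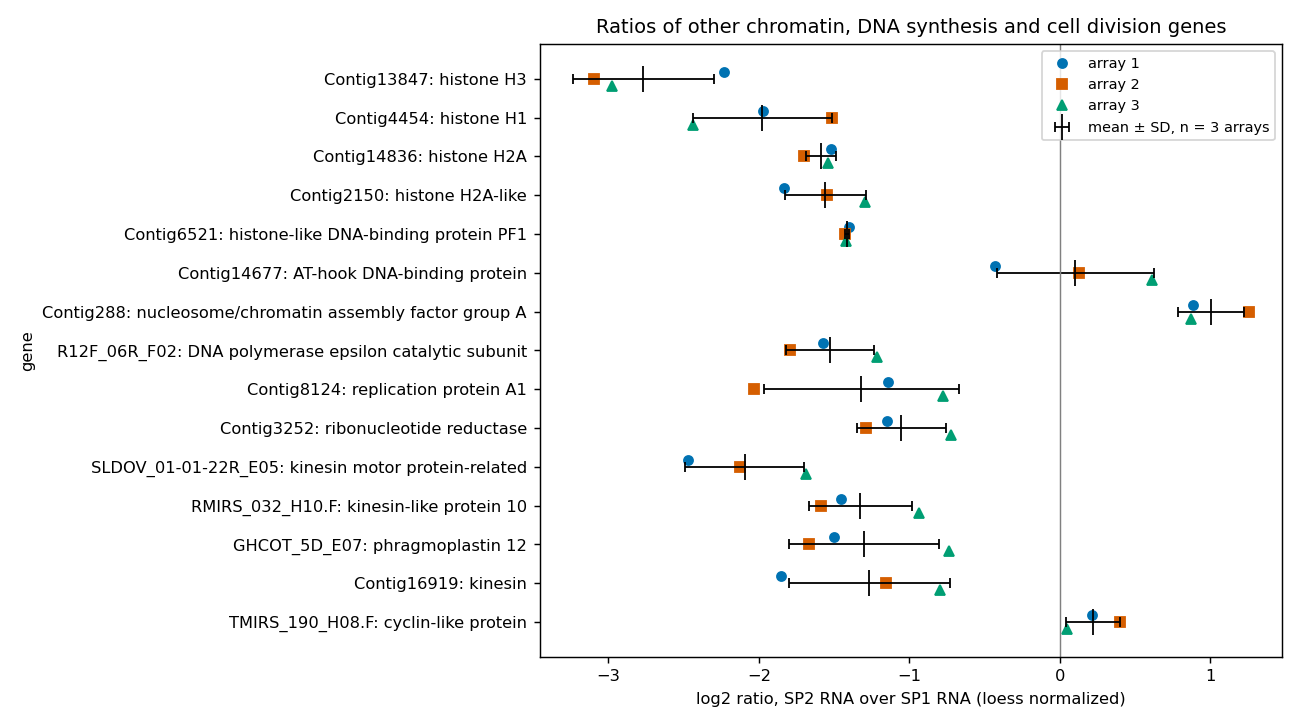
Loess-normalized log2 ratios of SP2 over SP1 RNA for 15 genes of chromatin, DNA synthesis and cell division, with a symbol for each of 3 arrays and a bar for the mean ± SD. All arrays lie below 0 for 12 genes, from -2.77 on average for histone H3 to -1.05 for ribonucleotide reductase, and above 0 for Contig288 and the cyclin-like gene.

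These calls rested on limma's moderated spread. With the ordinary test of each gene on its own 3 arrays, 0 of the 15 genes passed an adjusted p under 0.05. Of the 5 members 0 passed there, and of all genes tested 2 did, with 1710 at an unadjusted p under 0.05. Without dye normalization 2 of 7 chromatin genes, 1 of 3 genes of DNA synthesis and 1 of 5 cell division genes were called lower. With median centring the lower calls of Contig2150, Contig4454, Contig8124, Contig16919 and phragmoplastin were lost. In the deposited ratios those of Contig6521, Contig3252 and RMIRS_032_H10.F were lost as well.

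Genes whose ratios ran most like those of each member were sought among 843 other genes with a description in the study's table, by the Euclidean distance of the 3 array ratios. Nearest to topoisomerase II were Contig18656 (distance 0.39) and Contig14572, related to copper chaperones (0.71). Contig18656 is described as a hypothetical protein, and the study counts it among putative transcription factors. Histone H4 was closest to Contig17290 (0.12) and Contig17370 (0.13), both of unknown function, and histone H2A to Contig14236 (0.16) and again Contig17290 (0.20). H4 and H2A were at 0.24 from each other. The nearest genes to TMIRS_036_B03.F were a homeobox gene (0.21), and Contig13906 (0.25), of unknown function. Contig16160 was closest to Contig2271, a Dof-type zinc finger gene (0.26), and to the histone H1 gene Contig4454 (0.30), which shares its smaller size on array 2.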

How the data were processed

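Per the file headers, the deposited scanner files hold the mean green and red pixel intensity of each spot with that of its surroundings, from Agilent Feature Extraction, and a 0 or 1 flag of spots well above background in green. The authors also deposited the log2 of background-subtracted red over green for each spot, which was recomputed from the intensities at all 42034 gene spots within 1e-08 after sorting each array's values, and was neither centred nor turned. The version of the quantification software is not given in the sources used here.

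Intensities were corrected by normexp (offset 50) and log2 ratios were normalized by loess within each array in limma 3.58.1 and R 4.3.3. A red signal was above background when it exceeded the negative controls' median by 2.6 robust SD. Of 40372 probes, 38718 above background in either channel on at least 2 arrays were kept. Probe values were means of spots and gene values means of probes, and 1 spot without a gene name took the gene of its probe set. For 11081 of 11143 genes the ratios of 3 arrays were tested against 0 with lmFit and eBayes, with Benjamini-Hochberg adjustment across them. The SD is that of the array ratios. The number of arrays limits the precision. Arrays of older fiber were left out, since they are not analysed here, and the study's analysis of variance over all arrays was replaced by this fit.

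The members, lists, tests and alternatives were chosen with earlier results of these data known. Named genes were the members, all genes of 4 lists and the 2 described genes nearest to each member. Descriptions with an Expect value of at most 0.01 were used. The functions were tested on simulated data.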

Additional observations from a re-analysis of the deposited data

How the results depend on the processing

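Turned by the RNA codes, and under the alternatives of background, normalization, filter, probe summary, saturation (chosen after seeing the data) and left-out arrays, each of the 5 members kept a ratio below 0. Median centring moved their median to -1.90. The deposited ratios moved it to -1.89, and that of all genes to 0.25. Turned by the sample labels in place of the RNA codes, the sign of the mean turned for each member and each gene of the lists except MYB2 (GhAF034130), which had 0.091. The genes nearest to each member were not followed in this setting. The members' median was then 0.71, with 1.07 for Contig17288, 0.73 for Contig15160, 0.62 for Contig4036, 0.71 for TMIRS_036_B03.F and 0.51 for Contig16160. The other genes had 1.28 (Contig13847), 0.57 (Contig14836), 0.34 (Contig2150), 0.66 (Contig4454), 0.48 (Contig6521), -0.39 (Contig14677), -0.41 (Contig288), 0.56 (Contig8124), 0.48 (R12F_06R_F02_InvR_09Aug04_006.ab1), 0.29 (Contig3252), 0.36 (RMIRS_032_H10.F), 0.45 (the kinesin motor-related gene), 0.0331 (Contig16919), 0.30 (GHCOT_5D_E07_T3_26Aug03_055.ab1) and -0.0793 (TMIRS_190_H08.F). The fiber markers GhFDH, GhAJ549758 (MYB109), GhACY and GhRDL had -0.80, -0.71, -1.45 and -0.35. By the labels limma called 0 genes in either direction and 0 of each list, with 537 genes at an unadjusted p under 0.05.

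All genes called lower and higher numbered 921 and 438. Median centring left 250 and 80, the deposited ratios 156 and 90. There were 1 and 1 with the ordinary test and 524 and 192 at the study's threshold. The ordinary test called 0 genes of each list lower. Genes called lower were 3 of the chromatin, 2 of the DNA synthesis and 2 of the cell division list with median centring, and 2, 1 and 1 of the chromatin, DNA synthesis and cell division lists with the deposited ratios. The cause was not tested. Leaving out an array moved the genes called higher to between 222 (without array 2) and 1121 (without array 1). Contig14677 ran from -0.15 without array 3 to 0.37 without array 1. The fit of within-array ratios already pairs both RNAs of an array.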
